A study of Mus musculus with 2 samples.

Results

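Vax2, Hesx1, Olig2 and Nkx6-2 are transcription factor genes of the developing nervous system, and their RNA was measured here in mouse embryonic stem cells. These 4 of the 32285 genes in the deposited tables were listed by symbol and had been selected on their UMI counts, which were high in one culture condition, LBPXRS, or in a subset of the cells of the other, LB. Their levels in that contrast are therefore a description, and no test is made of them. Cells of R1, an established mouse embryonic stem cell line, were grown for 72 h in N2B27, a serum-free medium, and profiled as single cells in 2 libraries, 1 per condition. LB cultures received the signalling protein BMP4 and LIF, which keeps stem cells self-renewing, on gelatin. LBPXRS cultures received the same LIF and BMP4 on fibronectin together with Xav939 (a tankyrase inhibitor that lowers WNT signalling), SB431542 (an inhibitor of receptors for NODAL and activin), PD0325901 (an inhibitor of MEK, the kinase above ERK) and a compound given only as a resorcyclic lactone. Medium, substrate and culture changed together, so their effects cannot be told apart, and with 1 library per condition no difference has a replicate check. The series asks how these pathways limit what BMP4 does to stem cells.

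The homeodomain is a folded protein segment that binds short AT-rich DNA sites, and the basic helix-loop-helix (bHLH) segment binds E-boxes as a dimer. Vax2 specifies the ventral side of the developing eye, and Hesx1 is a repressor needed for the forebrain and pituitary. Nkx6-2 and Olig2 mark ventral progenitor domains of the neural tube under Hedgehog signalling, and Olig2, the bHLH member, directs the formation of motor neurons and oligodendrocytes. Hesx1 RNA is also known from pluripotent cells.

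LB gave 1783 kept cells with a median of 25418 UMIs (unique molecular identifiers, 1 per captured RNA molecule) and 4511 genes, and LBPXRS gave 2705 kept cells with a median of 19058 UMIs and 3801 genes. The libraries shared 10 cell barcodes. Levels are CPM, the share of a library's UMIs pooled over cells and scaled to 1000000. Intervals are 95% exact ones for the error of counting alone, and log2 ratios of LBPXRS to LB were taken after adding 1 CPM to both. The median log2 ratio was -0.17 over 7661 genes with at least 10 CPM in either library, or -0.02 with TMM scaling. Both libraries held pluripotency RNA: Pou5f1 stood at 719 CPM in LB and 990 CPM in LBPXRS, and Sox2 at 123 and 232 CPM. The labels call both libraries the same R1 line, which was derived from a male embryo, but 4 Y-linked genes gave 2872 UMIs in LB and 1 in LBPXRS. Among genes with a mean of at least 20 CPM, those of chromosomes 8 and 11 had median log2 ratios of -0.60 and -0.65. Those of the members' chromosomes (6, 7, 14 and 16) had medians of -0.05, 0.01, -0.10 and -0.07. The part of these differences in the members' levels was not tested.

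Promoters are shown for Hesx1, Olig2 and Nkx6-2, the 3 members matched in the RefSeq table of build GRCm38.p6, so that the stretches in front of a homeobox gene with RNA in both libraries, a bHLH gene with almost none in LB and a homeobox gene at similar levels in both can be compared. Each sequence is the 250 bases before the RefSeq transcription start, 5′ to 3′ on the gene's strand, with E-boxes in capitals. The Hesx1 window is chr14:27000112-27000361 (plus strand), the Olig2 window chr16:91225300-91225549 (plus strand) and the Nkx6-2 window chr7:139582798-139583047 (minus strand). The capitals mark 2 adjacent copies of CATATG in Hesx1 and 1 copy of CACCTG in Nkx6-2.
Hesx1: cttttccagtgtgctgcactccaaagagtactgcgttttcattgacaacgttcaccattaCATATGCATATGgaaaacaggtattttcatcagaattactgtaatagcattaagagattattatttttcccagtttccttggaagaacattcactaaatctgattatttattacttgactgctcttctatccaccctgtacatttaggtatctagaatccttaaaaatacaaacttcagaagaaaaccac
Olig2: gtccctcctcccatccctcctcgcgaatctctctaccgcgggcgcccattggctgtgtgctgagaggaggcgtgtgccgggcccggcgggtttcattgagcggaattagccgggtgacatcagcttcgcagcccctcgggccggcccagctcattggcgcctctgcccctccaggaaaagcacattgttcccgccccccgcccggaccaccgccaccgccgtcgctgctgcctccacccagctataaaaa
Nkx6-2: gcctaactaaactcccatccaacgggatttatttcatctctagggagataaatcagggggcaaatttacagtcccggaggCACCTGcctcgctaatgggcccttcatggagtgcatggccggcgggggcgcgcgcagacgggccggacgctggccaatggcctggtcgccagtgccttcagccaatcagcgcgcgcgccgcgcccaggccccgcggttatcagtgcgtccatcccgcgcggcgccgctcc
The Hesx1 copies begin 190 and 184 bases before the start and the Nkx6-2 copy 170 bases before it. Both strands were searched for the E-box CANNTG, found in 66.2% of all 32851 windows, and for its form CATATG, which is a subset of it and was found in 3.46%. The homeodomain core TAATTA (4.84% of windows), the TCF/LEF letters CTTTGAT (3.21%), the octamer ATGCAAAT (1.60%) and the GLI letters GACCACCCA (0.225%) had no match in the 3 windows. GC content was 34% for Hesx1, 66.8% for Olig2 and 65.2% for Nkx6-2, beside a median of 52.4% over all windows. GENCODE starts these genes further upstream than RefSeq in 2 cases: all 250 bases of the Hesx1 window and 93 bases of the Olig2 window lie inside the span of the GENCODE gene.

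Olig2 (ENSMUSG00000039830, mm10 chromosome 16, 91225457 to 91228677, plus strand, 2 annotated exons) was nearly absent from LB. It gave 1 UMI in LB, or 0.0220 CPM (95% interval 0.000557 to 0.123), and 1685 UMIs in LBPXRS, or 32.5 CPM (31.0 to 34.1). The ratio of the levels was 1479, with a counting interval from 265 to 58445 because its denominator is a single UMI, and the log2 ratio after adding 1 CPM was 5.04.

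Vax2 (ENSMUSG00000034777, chromosome 6, 83711264 to 83738313, plus strand, 3 exons) was present at a low level in LB. Its 55 UMIs there came to 1.21 CPM (0.911 to 1.57), against 3458 UMIs and 66.7 CPM (64.5 to 69.0) in LBPXRS. The LBPXRS level was 55.2-fold higher (42.3 to 73.4), a log2 ratio of 4.94.

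Hesx1 (ENSMUSG00000040726, chromosome 14, 26994416 to 27002329, plus strand, 7 distinct exons) had 260 UMIs in LB, or 5.72 CPM (5.04 to 6.45). In LBPXRS it had 4889 UMIs, or 94.3 CPM (91.7 to 97.0), which was 16.5-fold higher (14.6 to 18.8) and a log2 ratio of 3.83.

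Nkx6-2 (ENSMUSG00000041309, chromosome 7, 139579376 to 139582797, minus strand, 6 distinct exons) did not share this pattern. LB held 311 UMIs, or 6.84 CPM (6.10 to 7.64), and LBPXRS 394 UMIs, or 7.60 CPM (6.87 to 8.39). The ratio was 1.11 with an interval of 0.956 to 1.29 that includes no difference, and the log2 ratio was 0.13. At least 4-fold higher at 10 CPM or more in LBPXRS were 3 of the 4 members, in a comparison where 156 of 7661 genes (2.04%) were; 0 of the 4 were at least 4-fold lower, as 221 genes (2.88%) were. Since these counts chose the members, nothing is read from that. By log2 ratio, Olig2 was in place 1, Vax2 in place 2 and Hesx1 in place 13 of the 7661 genes, while Nkx6-2 stayed under 10 CPM in both libraries and was not ranked.

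**Figure D1:**
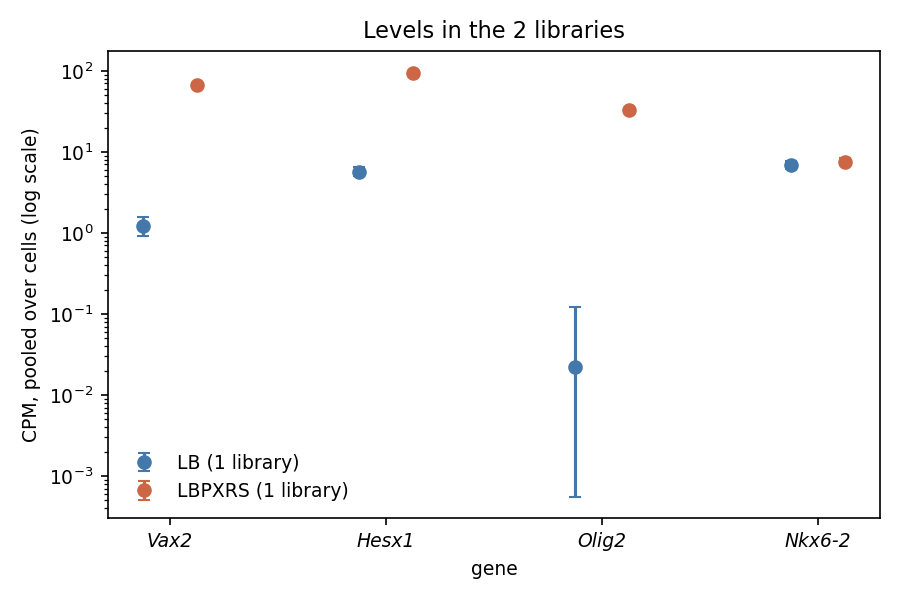
Level of each member in CPM on a log axis, pooled over the cells of 1 library per condition, with exact 95% Poisson intervals (narrower than the point where no bar is visible). Vax2, Hesx1 and Olig2 sit at 66.7, 94.3 and 32.5 CPM in LBPXRS and at 1.21, 5.72 and 0.0220 CPM in LB, while the intervals of Nkx6-2 overlap at 6.84 and 7.60 CPM.

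To ask how many cells carried each RNA at equal depth, cells were downsampled to 10000 UMIs, without the 117 LB cells and 196 LBPXRS cells that were shallower. In LBPXRS, Hesx1 was seen in 1330 of 2509 cells (53.0%, 51.0 to 55.0), Vax2 in 1102 (43.9%, 42.0 to 45.9) and Olig2 in 607 (24.2%, 22.5 to 25.9). The same genes were seen in 85 of 1666 LB cells (5.10%, 4.10 to 6.27), in 22 (1.32%, 0.829 to 1.99) and in none. A count of 0 of 1666 cells allows an Olig2 share of up to 0.180% at 3 counts, with an exact upper limit of 0.221%. Nkx6-2 was seen in 91 LB cells (5.46%, 4.42 to 6.66) and 170 LBPXRS cells (6.78%, 5.82 to 7.83), whose intervals overlap. At full depth the LBPXRS shares were 69.5% for Hesx1, 60.8% for Vax2, 38.1% for Olig2 and 12.0% for Nkx6-2, and the LB shares 11.3%, 2.58%, 0.0561% (1 of 1783 cells) and 11.7%.

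**Figure D2:**
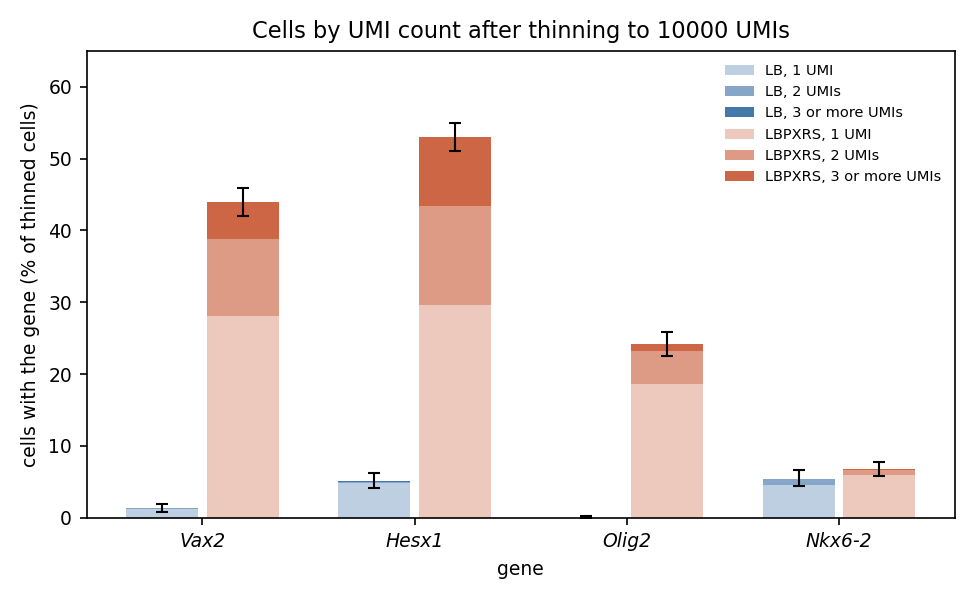
Percent of cells with 1, 2 or at least 3 UMIs of each member after thinning each cell to 10000 UMIs, as stacked bars with exact 95% binomial intervals of the whole bar. LBPXRS bars reach 43.9% for Vax2, 53.0% for Hesx1 and 24.2% for Olig2, against 1.32%, 5.10% and 0% in LB, and the 2 Nkx6-2 bars end at 5.46% and 6.78%.

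Most positive cells held a single UMI. Of the LBPXRS cells with Vax2, 706 had 1 UMI, 266 had 2 and 130 had at least 3, and for Hesx1 these numbers were 742, 347 and 241. Olig2 split into 469, 114 and 24 cells, and Nkx6-2 into 150, 16 and 4. The most seen in any LBPXRS cell at full depth was 15 UMIs for Hesx1, 13 for Vax2, 9 for Olig2 and 5 for Nkx6-2, whereas in LB cells Nkx6-2 reached 7, Hesx1 5, Vax2 3 and Olig2 1. The members varied more between LBPXRS cells than most genes of like mean. Their variance over mean was 1.38 for Vax2, 1.39 for Hesx1, 1.23 for Olig2 and 1.21 for Nkx6-2, above 93.6%, 94.0%, 94.5% and 97.7% of the genes within 1.25-fold of their means. Those genes had medians of 1.10, 1.11, 1.05 and 1.02.

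Within LB the members' RNA lay mainly in the cells that looked most like naive stem cells. A cluster of 760 LB cells (42.6% of cells and 45.8% of UMIs) led by Zfp42, Esrrb and Tcl1 was naive pluripotent-like, and it held 54 of the 55 Vax2 UMIs, 249 of the 260 Hesx1 UMIs (95.8%), the 1 Olig2 UMI and 247 of the 311 Nkx6-2 UMIs (79.4%). Hesx1 stood at 11.9 CPM in these cells (10.5 to 13.5), at 7.26 CPM (2.36 to 16.9) in 59 unnamed cells led by Slc7a3 and Spp1, at 0.571 CPM in the formative or primed-like cells and at or under 0.144 CPM in the mesoderm-like, primitive streak-like and trophoblast-like cells. The first 2 values in that order do not differ beyond their intervals, and the unnamed cells were shallow, with a median of 10646 UMIs. Vax2 stood at 2.59 CPM (1.94 to 3.38) in naive pluripotent-like cells, and elsewhere only 1 UMI was found, in a mesoderm-like cell. Mesoderm-like cells served as the reference for RNA from other cells: after thinning, 0 of 282 had Vax2 (limit 1.06% at 3 counts), 1 had Hesx1 (0.355%) and 2 had Nkx6-2 (0.709%), at a full median depth of 21400.5 UMIs beside 27186.5 in the naive pluripotent-like cells. The naive pluripotent-like shares of 3.01% for Vax2, 10.9% for Hesx1 and 9.70% for Nkx6-2 were above these.

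Nkx6-2 fell off less steeply across the LB clusters. From 11.8 CPM (10.4 to 13.4) in naive pluripotent-like cells it went to 5.81 CPM (1.58 to 14.9) in the unnamed cells and 5.14 CPM (3.75 to 6.88) in formative or primed-like cells, where Vax2 was at 0 and Hesx1 at 0.571 CPM. Primitive streak-like cells had 1.38 CPM, trophoblast-like cells 1.27 CPM and mesoderm-like cells 0.577 CPM (0.157 to 1.48), which do not differ beyond their intervals. At a finer clustering (13 LB clusters), Nkx6-2 was highest at 20.5 CPM (16.3 to 25.4) in 161 cells led by Calb2 and Crxos and at 18.3 CPM (13.1 to 24.9) in 89 cells led by Ms4a10. Hesx1 was at 9.64 and 8.49 CPM and Vax2 at 2.47 and 1.34 CPM in the same cells. The clusters were made from the same cells and genes, so their differences are a description.

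The LB cultures also held cells that had left the naive state, so LBPXRS was set beside the naive pluripotent-like LB cells alone. The LBPXRS level was 25.8-fold higher for Vax2 (19.7 to 34.4) and 7.90-fold higher for Hesx1 (6.95 to 9.01), with log2 ratios of 4.24 and 2.88. For Olig2 the ratio was 678 over the single UMI, with a counting interval of 121 to 26790 and a log2 ratio of 5.00. Nkx6-2 went the other way: LBPXRS had 0.642 of its level in these cells (0.546 to 0.756), a log2 ratio of -0.58. These cells were not uniform in Nkx6-2: at the finer clustering it was at 3.32 CPM (1.81 to 5.57) in 150 of them, at 7.16 CPM (4.31 to 11.2) in 94 and at 11.7 CPM (9.40 to 14.4) in 266, beside the 161 and 89 cells at 20.5 and 18.3 CPM given above. The LBPXRS level of 7.60 CPM lay above the first of these values, within the interval of the second and below the rest.

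Across LBPXRS cells the members were spread over all clusters rather than kept to one. The 7 clusters are called here by their leading genes. The cells led by Krt8 and Krt18 met the rule for a trophoblast-like name with 3 raised markers, but they are not given it here, as Hand1, another listed marker, was at 0 in the library. That ground was not applied in LB, where the trophoblast-like cells, with 7 raised markers, kept the name although the listed marker Elf5 was at 0. No other LBPXRS cluster met the naming rule. Vax2 ran from 80.2 CPM (73.8 to 87.1) in the 338 cells led by Chac1 and Trib3 down to 53.1 CPM (49.3 to 57.0) in the 815 cells led by Krt8 and Krt18. The Spry2, Cenpf, Gata2 and Hspa5 clusters lay between, at 78.7, 71.2, 67.1 and 66.4 CPM, each overlapping its neighbour in this order, and all of them above the Krt8 and Krt18 interval. In 81 cells led by Asb3 and Eif4a1, which had a median of only 3382 UMIs and 0.0459% mitochondrial UMIs, Vax2 was at 61.8 CPM (39.6 to 91.9), an interval that reaches into those of all the others. At the finer clustering (12 LBPXRS clusters) the lowest Vax2 levels were 16.3 CPM (6.56 to 33.6), from 7 UMIs in 52 cells led by Pmel and Gla with a median of 7609 UMIs and 6.96% mitochondrial UMIs, and 43.7 CPM (38.1 to 49.9) in 296 cells led by Krt8.

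Hesx1 was highest at 134 CPM (99.9 to 176) in those shallow cells and at 133 CPM (123 to 145) in the 210 cells led by Hspa5 and Pdia6, genes of protein folding in the endoplasmic reticulum. It stood at 116 CPM in the Chac1 and Trib3 cells, at 114 CPM in the Spry2 and Slc39a1 cells and at 102 CPM in the Cenpf cells, whose genes act in mitosis. The lowest values were 80.8 CPM (76.2 to 85.6) in the 730 cells led by Gata2 and Dusp4 and 72.7 CPM (68.3 to 77.4) in the Krt8 and Krt18 cells, which overlap each other and lie below all other clusters. The finer clusters ran from 66.2 to 141 CPM.

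Olig2 was lowest in the cells led by Gata2 and Dusp4. It was at 13.8 CPM (11.9 to 15.9) there and at 52.5 CPM (47.4 to 58.2) in the Chac1 and Trib3 cells, with 46.9 CPM (41.0 to 53.4) in the Spry2 cells. The remaining clusters lay between 30.01 and 36.0 CPM and overlapped one another. After thinning, 84 of 697 Gata2 cells had Olig2 (12.1%, 9.73 to 14.7) and 116 of 331 Chac1 and Trib3 cells (35.05%, 29.9 to 40.4), so the order was the same at equal depth. Olig2 is itself among the 10 leading genes of the Chac1 and Trib3 cluster. At the finer clustering it ranged from 4.50 CPM (2.62 to 7.20) in 188 cells led by Hkdc1 and Gata2 to 50.5 CPM (45.6 to 55.9) in 350 cells led by Chac1. After thinning, 4 of 181 of the former had Olig2 (2.21%, 0.605 to 5.56) and 118 of 344 of the latter (34.3%, 29.3 to 39.6), at full median depths of 20096.5 and 21008.5 UMIs. No LBPXRS cluster could serve as a cell type that should lack Vax2 or Hesx1, so RNA from other cells was not gauged for those members in this library.

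Among the deeper clusters, Nkx6-2 was highest in the Krt8 and Krt18 cells, where Vax2 and Hesx1 were lowest. It was at 10.3 CPM (8.71 to 12.2) there and at 8.30 CPM (6.87 to 9.95) in the Gata2 cells, which overlap. It was at 6.80 CPM in the Hspa5 cells, 5.34 CPM in the Spry2 cells, 5.17 CPM in the Cenpf cells and 4.78 CPM (3.31 to 6.68) in the Chac1 and Trib3 cells. The last 3 intervals lie below that of the Krt8 and Krt18 cells. The shallow Asb3 cells had 18.0 CPM from 7 UMIs (7.24 to 37.1). At the finer clustering Nkx6-2 was at 13.5 CPM (10.5 to 17.1) in the 296 cells led by Krt8 and at 2.33 CPM, from 1 UMI, in the 52 cells led by Pmel.

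**Figure D3:**
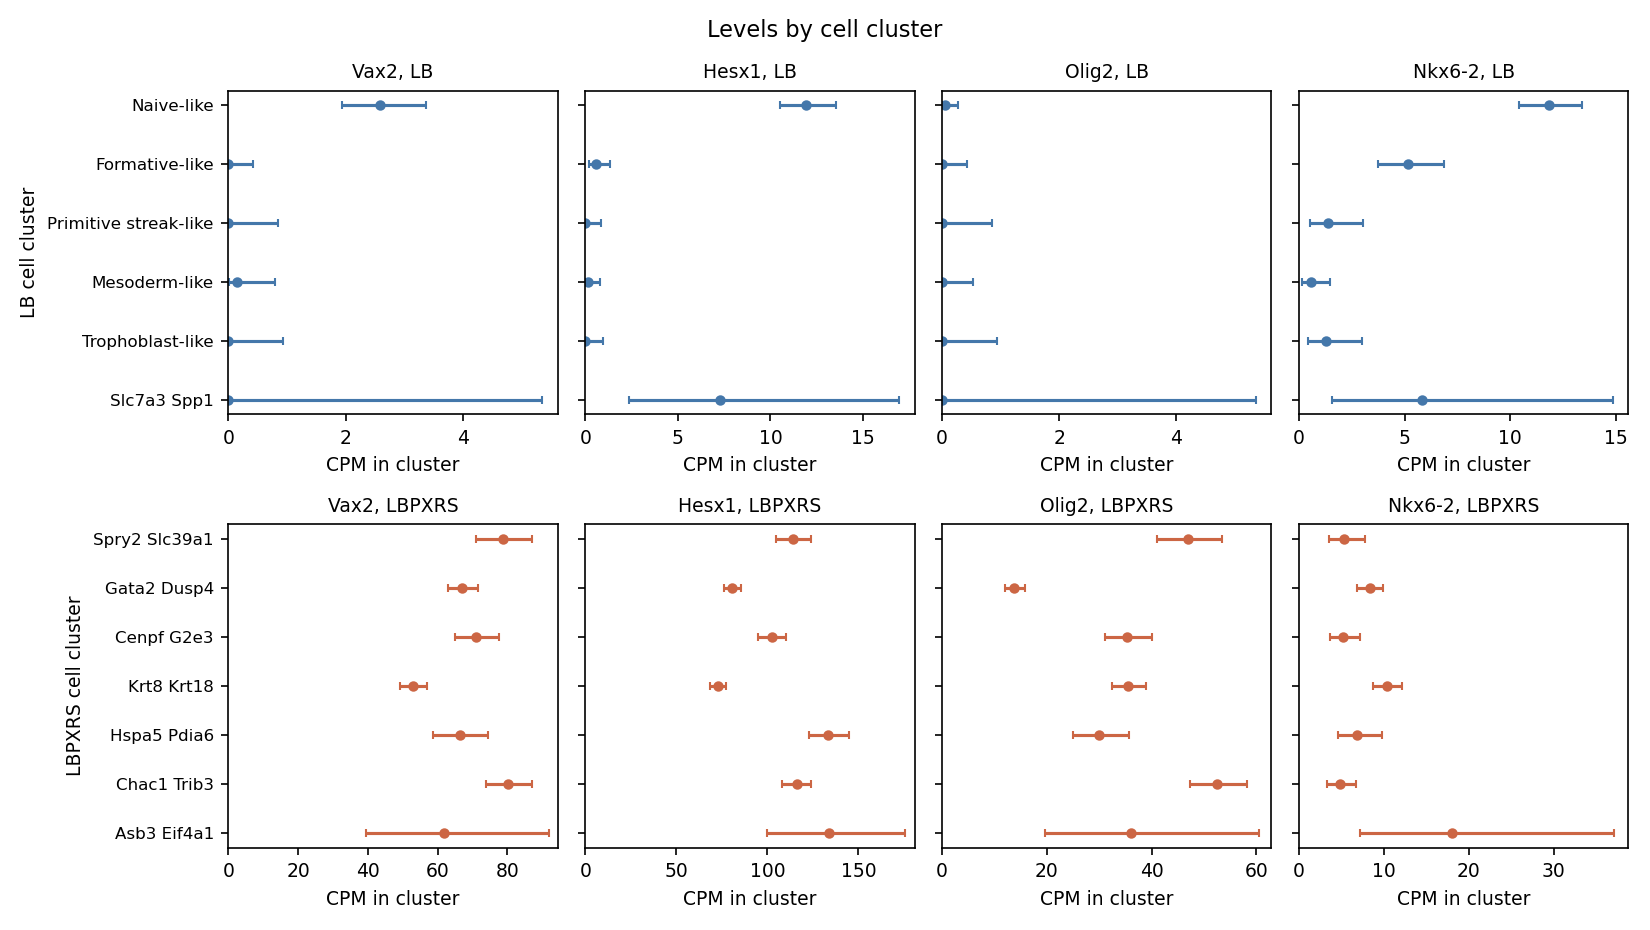
Level of each member in CPM in every cell cluster, LB above and LBPXRS below, with exact 95% Poisson intervals and an axis of its own in each panel. The LB naive pluripotent-like cells lead for Vax2 at 2.59 CPM, Hesx1 at 11.9 CPM and Nkx6-2 at 11.8 CPM, and in LBPXRS Olig2 drops to 13.8 CPM in the cells led by Gata2.

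Joint presence in single cells was not used to pick the members, and in LBPXRS it was compared with the product of their shares. At 10000 UMIs per cell, 532 cells (21.2%) had none of Vax2, Hesx1 and Olig2, 1081 (43.1%) had 1 of them, 730 (29.1%) had 2 and 166 (6.62%, 5.67 to 7.66) had all 3. The product of the shares gave 19.98%, 44.6%, 29.8% and 5.63%. Vax2 and Hesx1 were found together in 616 cells beside 584.2 from the product, a ratio of 1.06 (0.973 to 1.14). Hesx1 was seen in 55.9% of the cells with Vax2 (52.9 to 58.9) and in 50.8% of those without (48.1 to 53.4), and Pearson's r over the 2509 cells was 0.070. The ratio was 1.06 (0.941 to 1.19) for Vax2 and Olig2 and 1.02 (0.915 to 1.14) for Hesx1 and Olig2. It was 1.00 (0.790 to 1.26) for Nkx6-2 with Vax2, 0.877 (0.694 to 1.09) with Hesx1 and 0.900 (0.633 to 1.24) with Olig2. The 6 ratios lay between 0.877 and 1.06. Their intervals cover counting error of the joint number alone, without the constraint that the number of cells with each gene sets. They are too wide for that reason, and an interval that includes 1 is not read as agreement with the product. The share with all 3 of Vax2, Hesx1 and Olig2 was slightly above its product, which lies just under the interval. In 8 cells (0.319%) all 4 members were seen, beside 0.382% from the product.

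**Figure D4:**
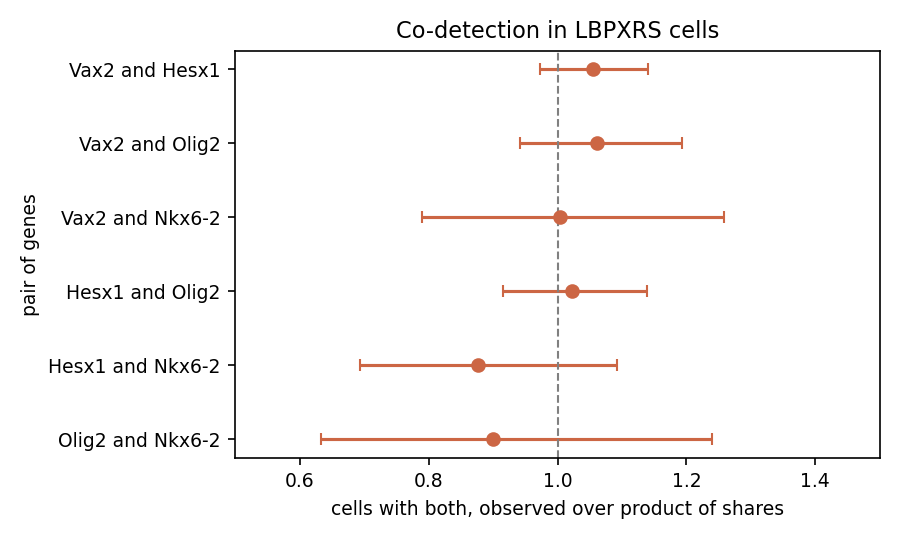
Number of LBPXRS cells with both genes of a pair divided by the number from the product of their shares, at 10000 UMIs per cell, with exact 95% Poisson intervals of the observed number. The dashed line marks a ratio of 1, and the 6 pairs of members run from 0.877 to 1.06. The intervals leave out the constraint set by the number of cells with each gene and are too wide for that reason.

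In LB too few cells carried the members for the same comparison over the library, as no pair was due in 5 or more cells. Hesx1 and Nkx6-2 shared 12 cells beside 4.64 from the product, but both sat mainly in the naive pluripotent-like cells. Within those cells the same 12 stood beside 7.76, a ratio of 1.55 (0.799 to 2.70). At full depth, where deeper cells add to joint detection, Vax2 and Hesx1 shared 19 of these cells beside 11.4, a ratio of 1.67 (1.01 to 2.61). Hesx1 and Nkx6-2 shared 48 beside 39.9, a ratio of 1.20 (0.887 to 1.59), and Vax2 and Nkx6-2 shared 10 beside 9.36, a ratio of 1.07 (0.513 to 1.97).

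The genes next to each member on its chromosome were compared in the same libraries. Vax2os, an antisense RNA gene that starts beside Vax2 on the other strand (83692806 to 83712201) and shares 938 bases of its span but 0 exonic bases, moved in the same direction. It had 267 UMIs in LB, or 5.87 CPM (5.19 to 6.62), and 2774 in LBPXRS, or 53.5 CPM (51.6 to 55.6), a log2 ratio of 2.99. Within LB, 94.8% of its UMIs were in the naive pluripotent-like cells, as for Vax2. In LBPXRS cells both were seen together in 462 cells beside 430 from the product, a ratio of 1.07 (0.979 to 1.18). On the other side of Vax2, Atp6v1b1 gave 0 UMIs in LB and 10 in LBPXRS, and 1700124L16Rik gave 14 and 120, and Cd207, beyond Vax2os, gave 0 and 6. Whether the counting used strand is not given in the sources used here.

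Olig1, the bHLH gene 41095 bases to the right of Olig2 and a factor of the same oligodendrocyte programme, gave 4 UMIs in LB and 473 in LBPXRS. Its level was 0.0879 CPM in LB and 9.13 CPM (8.32 to 9.99) in LBPXRS, a log2 ratio of 3.22. Olig1 was seen in 10.9% of LBPXRS cells with Olig2 (8.51 to 13.6) and in 7.57% of those without (6.42 to 8.85). They shared 66 cells beside 50.8 from the product, a ratio of 1.30 (1.01 to 1.65). This interval, too, leaves out the constraint set by the number of cells with each gene. It therefore does not set this pair apart from Vax2 with Hesx1 or Vax2 with Vax2os. By cluster, Olig1 was at 5.63 CPM (4.46 to 7.01) in the Gata2 cells and at 11.5 CPM (9.16 to 14.3) in the Chac1 and Trib3 cells. The other deep clusters lay between 9.09 and 10.8 CPM and did not differ from the Chac1 and Trib3 cells beyond their intervals. The other neighbours of Olig2, 4932438H23Rik, Gm41492 and Gm15966, had 0 UMIs in LB and 7, 31 and 5 in LBPXRS.

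Around Hesx1 the nearest genes on both sides stood lower in LBPXRS. Il17rd, which encodes an antagonist of FGF signalling, stood at 14.4 CPM in LB and 3.72 CPM in LBPXRS, a log2 ratio of -1.71, and Appl1 at 35.1 and 28.4 CPM. Further out, Asb14 gave 20 and 85 UMIs and Arhgef3 was at 3.21 and 2.16 CPM. Inpp5a, a phosphatase gene whose 3′ end overlaps that of Nkx6-2 by 277 bases on the opposite strand, was at 6.88 CPM in LB and 8.16 CPM in LBPXRS. Reads in that overlap cannot be told apart without strand, and their part in either level was not tested. In LB, 29.1% of the UMIs of Inpp5a lay in naive pluripotent-like cells, against 79.4% of those of Nkx6-2. In LBPXRS the RNAs were spread more alike. The Krt8 and Krt18 cells held 31.0% of the Inpp5a UMIs and 36.3% of those of Nkx6-2, and the Gata2 cells 25.53% and 29.95%. Gm32486, Cfap46 and Adgra1 gave at most 4 UMIs in either library.

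**Figure D5:**
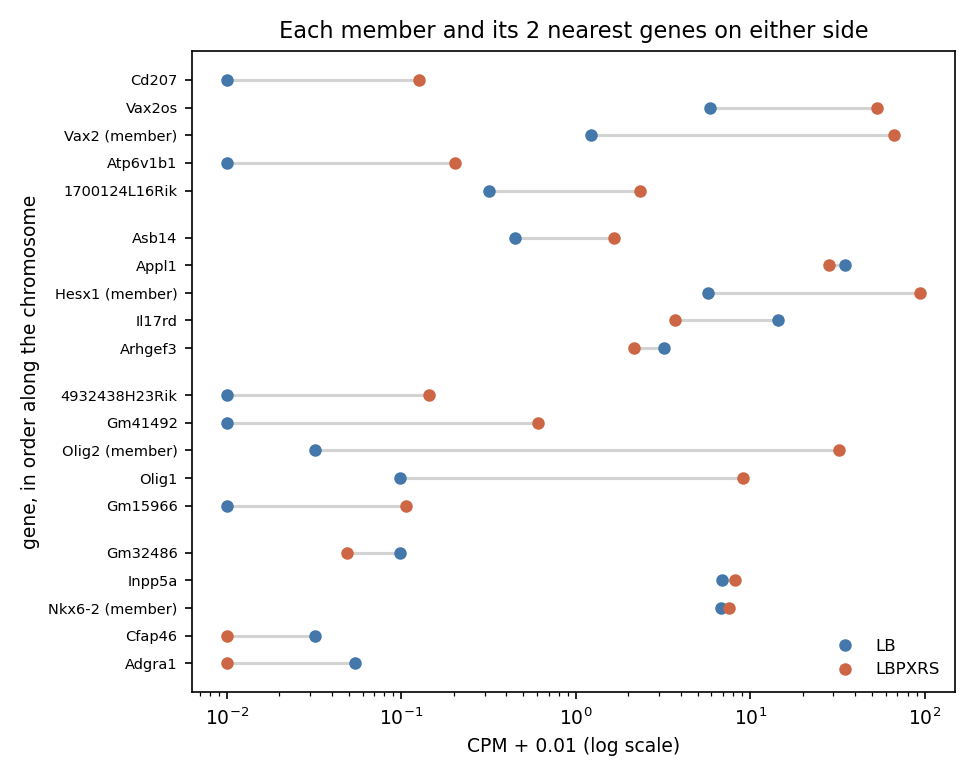
Level of each member and of the 2 nearest annotated genes on either side, in CPM plus 0.01 on a log axis, for LB and LBPXRS (1 library each, without error bars). Vax2os (5.87 and 53.5 CPM) and Olig1 (0.0879 and 9.13 CPM) stand higher in LBPXRS beside Vax2 and Olig2, whereas the neighbours Appl1 and Il17rd of Hesx1 stand lower.

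Other genes of the members' programmes were then counted against the shares given above for all genes. Of the 20 anterior and eye-field factors, 2 reached 10 CPM, and neither was at least 4-fold higher. Otx2, an activator of Hesx1 in the forebrain, was level at 37.8 CPM in LB and 38.3 CPM in LBPXRS, and Pitx1 was at 6.68 and 1.51 CPM. The 5 genes of this list with a mean of at least 1 CPM had a median log2 ratio of -1.17, beside -0.14 over the 12618 genes at that level. The 15 ventral neural tube factors had a median of 1.09 over 5 genes, none of which reached 10 CPM. They included Nkx2-9 at 2.13 CPM in LB and 5.67 CPM in LBPXRS, Olig1, and Irx3 at 4.33 and 1.70 CPM. Of the 13 proneural bHLH factors, which commit progenitors to neurons, 1 had a mean of 1 CPM, Neurod1 at 1.61 and 1.47 CPM, and 9 had any UMI.

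Of 14 genes of neural progenitors and neurons, 5 reached 10 CPM, and the median log2 ratio over the 10 with a mean of at least 1 CPM was -1.10. Ncam1, a cell adhesion gene, was at least 4-fold higher in LBPXRS (5.43 CPM in LB and 33.8 CPM in LBPXRS), and 2 were lower, the progenitor filament gene Nes (16.9 and 3.13 CPM) and the cadherin gene Cdh2 (11.1 and 0.694 CPM). With TMM scaling Nes missed the 4-fold mark, at a log2 ratio of -1.99. Stmn2, a neuronal microtubule gene, was at 295 CPM in LB and 152 CPM in LBPXRS, and the neuronal tubulin gene Tubb3 at 17.6 and 8.76 CPM. The 8 neural markers listed for naming clusters summed to 39.8 CPM in LB and 14.9 CPM in LBPXRS, of which 2 and 1 reached 5 CPM. Among the defining markers, Sox1 had 3 UMIs in LB (0.0660 CPM) and 66 in LBPXRS (1.27 CPM), Pax6 was at 0.945 and 0.174 CPM, and Dcx gave 1 UMI in LB and 0 in LBPXRS. The 10 oligodendrocyte lineage genes had a median of -0.41 over 6 genes, of which 1 reached 10 CPM and was not changed 4-fold. That was the myelin gene Cnp, at 15.9 CPM in LB and 10.9 CPM in LBPXRS. Myrf, a regulator of myelin genes, was at 6.95 and 0.714 CPM, a log2 ratio of -2.21 at a level below that minimum. The list was mixed: Mag, a myelin glycoprotein gene, gave 8 UMIs in LB (0.176 CPM) and 117 in LBPXRS (2.26 CPM), a log2 ratio of 1.47.

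Of the 15 Hedgehog pathway genes, 4 reached 10 CPM and 1 of these was at least 4-fold lower, Gas1, a co-receptor (10.4 CPM in LB and 1.18 CPM in LBPXRS, under the 10 CPM minimum with TMM scaling), and the median over 11 genes was -0.13. Ptch1, the receptor and a direct target of the pathway, was at 10.3 CPM in LB and 12.7 CPM in LBPXRS, the transducer Smo at 16.3 and 5.02 CPM, and the transcription factor Gli2 at 4.57 and 11.8 CPM. Hhip, which binds Hedgehog ligands and is also a target of the pathway, stayed under 10 CPM, at 0.242 CPM in LB (11 UMIs) and 4.19 CPM in LBPXRS (217 UMIs), a log2 ratio of 2.06. Some proteins of the Groucho family are corepressors that Hesx1 and Nkx6 factors bind. The 6 listed genes of the family had a median of 0.41 over 5. None of the 4 that reached 10 CPM changed 4-fold, though Tle5 passed that mark with TMM scaling (log2 ratio 2.08). Tle5, a short family member, was at 67.6 and 260 CPM (log2 ratio 1.93), Tle3 at 23.0 and 51.7 CPM and Tle4 at 34.9 and 17.1 CPM. E proteins are the dimer partners of Olig2, and Id proteins hold E proteins away from DNA. Among these 7 genes the median was -0.54 and 2 were at least 4-fold lower, Id1 (175 CPM in LB and 17.8 CPM in LBPXRS) and Id3 (147 and 6.33 CPM), both known targets of BMP signalling. The other Id genes went apart, with Id2 at 57.4 and 33.4 CPM and Id4 at 5.41 and 14.95 CPM (log2 ratio 1.32), and the E protein gene Tcf3 was level at 89.9 and 89.3 CPM.

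Genes whose counts ran most alike to each member across thinned cells were ranked by Pearson's r among genes of at least 20 CPM. All values were small and come from sparse counts of cells that share 1 library and 1 depth, so they describe the cells only. In LB (1666 cells) Hesx1 was most like Zfp42 (r = 0.22), Dppa5a (0.20), Fam25c (0.20), Klf2 (0.19) and Dpys (0.19), of which Zfp42, Dppa5a and Klf2 are known genes of naive stem cells. Nkx6-2 in LB was most like Fabp3 (0.19), Tfcp2l1 (0.18), Gsta4 (0.18), Ckb (0.17) and Dppa5a (0.17). In LBPXRS (2509 cells) Olig2 was most like Klf4 (0.19), Mycn (0.18), Zfp42 (0.16), Sox2 (0.15) and Otx2 (0.13), 5 transcription factor genes, and least like Fabp3 (-0.21). Hesx1 there had Upp1 (0.17), Ptma, H2afz, Aldoa and Anp32b (each 0.15), Vax2 had Ddah2, Chchd10, Sdhb, Tdgf1 and Camk2n1 (0.10 to 0.12), and Nkx6-2 had Dcxr, Gpx3, Mdm2, Ranbp3 and Trp53inp1 (0.10 to 0.11).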

How the data were processed

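UMI counts per gene and barcode were deposited for 2 libraries, made with Cell Ranger 4.0.0 on build mm10, per the submitters' processing notes, from 10x Genomics 3′ version 2 libraries, per the labels' protocols. Cell calling, the annotation and the strand setting of the counting are not given in the sources used here.

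Barcodes with fewer than 1000 genes or over 10% mitochondrial UMIs were left out (225 of 2008 in LB, 406 of 3111 in LBPXRS). Scrublet in scanpy 1.11.5 marked 12 LB cells (0.673%) and 14 LBPXRS cells (0.518%) as doublets, which were kept. Counts were pooled per library (45490517 and 51832444 UMIs) and scaled to CPM. Poisson and binomial (Clopper-Pearson) intervals are exact at 95%. Each library was clustered on its own (log counts scaled to 10000, 2000 variable genes, 30 components, 15 neighbours, Leiden resolution 0.5). A cluster was named "-like" where at least 3 listed markers of a class had 5 CPM and a log2 ratio of 1 over the library's other cells, more than of any other class. Over all detected markers of that class the median log2 ratio also had to reach 1, no other class could have more markers among the 10 leading genes, and a cluster under the library's median depth divided by 3 needed 1 there. These thresholds were chosen with the clusters in view. GENCODE coordinates were matched for 32235 of 32285 gene identifiers. Calculations were tested on simulated data.

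The members and the gene lists were chosen with earlier results of these data known. Named from each list were its 3 most abundant genes and any changed at least 4-fold at 10 CPM, with the 5 most alike genes and 2 neighbours on each side of a member; a few others were named after their values were seen, and some that the rule names are not reported here. No p-value is given, since each condition has 1 library. Alternatives were other scalings (edgeR 4.0.16), pseudocounts, cell filters, thinning depths and cluster resolutions.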

Additional observations from a re-analysis of the deposited data

How the results depend on the processing

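The log2 ratios of Vax2, Hesx1, Olig2 and Nkx6-2 kept their sign with TMM scaling, a pseudocount of 0.1 CPM, all deposited barcodes, no called doublets and a mean over cells, and the sign of Nkx6-2 turned only beside naive pluripotent-like LB cells (-0.58), where Vax2 gave 4.24 and Hesx1 2.88. A pseudocount of 0.1 CPM gave 5.67 for Vax2, 4.02 for Hesx1 and 8.06 for Olig2, and TMM scaling gave 5.11 for Olig2 and turned the median of the proneural list, 1 gene, to 0.01. Shares of cells moved with depth. Thinned to 5000 UMIs, LB had 0.635% with Vax2, 3.001% with Hesx1 and 3.12% with Nkx6-2, and LBPXRS 27.1% with Vax2, 33.2% with Hesx1, 13.4% with Olig2 and 4.24% with Nkx6-2. Without thinning these were 2.58%, 11.3% and 11.7% in LB and 60.8%, 69.5%, 38.1% and 12.0% in LBPXRS. With at least 2 UMIs they were 0.120%, 0.300% and 0.900% in LB and 15.8%, 23.4%, 5.50% and 0.797% in LBPXRS. The co-detection ratios of the 6 pairs of members in LBPXRS moved by less than their intervals under all alternatives run. These included a second thinning draw that was added after the data were seen. The ratios with Vax2os and Olig1 were not part of this check. Over genes with a mean of at least 1 CPM, 357 were at least 4-fold lower rather than 221. At Leiden resolution 1 the highest LB cluster had 14.4 CPM of Hesx1 and 20.5 CPM of Nkx6-2. No paired analysis was possible because each condition has 1 library.

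With 1 library per condition, spread between cultures is unknown, and medium, substrate and culture cannot be told apart. The differences in Y-linked RNA and in genes of chromosomes 8 and 11 also go with the condition, and their part was not tested. Shares count cells in which a UMI was caught, not cells that express a gene: between draws of 10000 UMIs the SD of the LBPXRS shares was 0.328 to 0.675 percentage points. Depth limits joint detection of low genes most, which in LBPXRS means above all Nkx6-2, the member seen in the fewest cells there. The ranking of alike genes came from 1 draw.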

Other observations

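Several further homeobox genes of the anterior and ventral neural lists were scarce in both libraries but had more UMIs in LBPXRS; they were picked after their values were seen. Nkx6-3, a relative of Nkx6-2, gave 12 UMIs in LB, or 0.264 CPM (0.136 to 0.461), and 144 in LBPXRS, or 2.78 CPM (2.34 to 3.27). Rax, which initiates the eye field, gave 17 and 112 UMIs, and Lhx2 gave 14 and 60. Emx1, a gene of the dorsal forebrain, gave 1 UMI in LB and 64 in LBPXRS, Otx1 gave 3 and 47, and Lhx3 gave 2 and 35. The lists did not rise as a whole, as other scarce homeobox genes in them had fewer UMIs in LBPXRS. Among these, Isl1 gave 132 in LB and 78 in LBPXRS, Pax6 gave 43 and 9, Pax3 gave 19 and 1, and Emx2 gave 7 and 1. Of other close relatives of the members, Vax1 gave 13 UMIs in LB and 1 in LBPXRS, Olig3 gave 3 and 0, and Nkx6-1 gave 1 and 3. Six6 and Nr2e1 gave 0 UMIs in both libraries.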
